A study of Mus musculus with 12 samples.

Results

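The iron genes described here are 10 genes of iron storage, iron transport and heme breakdown: Fth1, Ftl1, Hmox1, Tfrc, Trf, Cp, Steap3, Ireb2, Aco1 and Ncoa4. They were chosen by name, and all 10 were found by their Ensembl identifiers among the 54838 genes counted. RNA was sequenced from the spinal cord of mice at postnatal day 60 (P60) in 12 libraries, 3 in each of 4 groups. Control mice were Olig1+/+;Tet1fl/fl and Tet1 mutants were Olig1cre/+;Tet1fl/fl, so that every animal carried the floxed Tet1 alleles and the Cre knocked into Olig1 deletes Tet1 sequence only in cells of the oligodendrocyte lineage. Lesioned tissue was taken 4 days after injection of lysolecithin (LPC), a detergent-like lipid that strips myelin from the injected white matter, and is called 4dpl. Unlesioned tissue came from the opposite side of the cord, so the lesion and the side cannot be told apart. Cells were enriched for oligodendroglia on a Percoll gradient but were not sorted, and mice of either sex were used.

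Iron enters most cells bound to transferrin (Trf), which docks on the transferrin receptor (Tfrc) and is taken into endosomes, where the reductase Steap3 turns ferric into ferrous iron. Spare iron is stored inside ferritin, a hollow shell built from heavy chains (Fth1), which oxidize the iron, and light chains (Ftl1), and Ncoa4 carries ferritin to lysosomes when iron is needed. Heme oxygenase 1 (Hmox1) opens the heme ring and frees its iron, and ceruloplasmin (Cp) is a copper enzyme that oxidizes iron as it leaves the cell. Oligodendrocytes are among the most iron-rich cells of the brain and spinal cord and make transferrin themselves, and phagocytes that clear myelin and red cells also handle much iron.

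The iron regulatory proteins Aco1 (IRP1) and Ireb2 (IRP2) sense cellular iron and bind a short RNA hairpin, the iron-responsive element (IRE). Bound at the 5′ end of a transcript the proteins block its translation, and bound at the 3′ end they protect it from decay. The hairpin was searched for in the spliced transcripts as a 6-base loop CAGTGN closed by a stem of 5 base pairs, G-T pairs and at most 1 mismatch allowed, with an unpaired C below the left arm. Among the 10 iron genes it was found in Fth1, Ftl1 and Tfrc. These are shown because they mark which of the transcripts measured below carry the element that Aco1 and Ireb2 bind, and each was taken from the GRCm38 genome with all 5 pairs formed and is printed 5′ to 3′ on the gene's strand with the loop in capitals.
Fth1, 5′ UTR in exon 1, chr19:9982732-9982761, plus strand: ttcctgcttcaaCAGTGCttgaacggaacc
Ftl1, 5′ UTR in exon 1, chr7:45459778-45459807, minus strand: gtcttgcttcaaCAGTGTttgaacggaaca
Tfrc, 3′ UTR in exon 19, chr16:32631219-32631248, plus strand: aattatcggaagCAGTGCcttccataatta
Tfrc, 3′ UTR in exon 19, chr16:32631598-32631627, plus strand: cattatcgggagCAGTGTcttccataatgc
Tfrc, 3′ UTR in exon 19, chr16:32631663-32631692, plus strand: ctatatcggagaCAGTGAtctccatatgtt
Tfrc, 3′ UTR in exon 19, chr16:32631710-32631739, plus strand: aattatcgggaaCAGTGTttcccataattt

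Both ferritin chains thus carry 1 hairpin near the start of the transcript and Tfrc carries 4 in a single exon. The same search matched the 5′ UTR of 204 of 20916 protein-coding genes (0.975%) and the 3′ UTR of 871 of 21045 (4.14%). In the promoters of the 10 genes (250 bases before to 50 after each RefSeq start site), the core TGACNNNGC of the antioxidant response element was found on either strand in 1 of 16 windows (6.25%), that of Ncoa4, and in 4071 of 32851 windows of all genes (12.4%). These are matches of letters and were not tested for binding. Elements farther than 250 bases upstream lay outside the promoter windows, so the search cannot show that a gene lacks the element.

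Total counts per library lay between 34805086 and 67251544, and the lowest count of any of the 10 genes in any library was 148, for Steap3. Values are given as CPM, counts scaled to a common library size after TMM normalization. Tet1, the targeted gene, did not differ between genotypes in its count over the whole gene (log2 difference -0.33 unlesioned, adjusted p = 1, and 0.34 at 4dpl, adjusted p = 0.905, edgeR's quasi-likelihood test), so the genotype is taken from the labels. Control unlesioned replicate 1 stood apart from the other unlesioned libraries in Hmox1 (666 CPM against 56.8 to 295). Of 10 oligodendrocyte markers none was at 0 in any library, and their summed level was 14760 to 28865 CPM in the 6 unlesioned libraries and 23934 to 70150 CPM in the 6 libraries at 4dpl. Of 10 markers of microglia and macrophages none was at 0 either, their sum was 4710 to 10324 CPM unlesioned and 11786 to 17616 CPM at 4dpl, and 8 of the 10 were called higher at 4dpl over both genotypes. Over both genotypes 2 of the 10 oligodendrocyte, 3 of 5 progenitor and 2 of 8 astrocyte markers were called higher and none of these lower. Of the other lists none had a marker called higher, and the markers called lower were 1 of 5 neuronal, 1 of 5 ependymal and choroid plexus, 1 of 6 neutrophil, 2 of 3 Schwann cell, 0 of 6 endothelial and 0 of 7 erythroid markers tested. Of 7 erythroid and 6 neutrophil markers none was at 0 in any library. The erythroid sum was 18361 to 100175 CPM unlesioned and 12177 to 44507 CPM at 4dpl, and the neutrophil sum was 24879 to 100939 CPM unlesioned and 18084 to 90647 CPM at 4dpl. Split by genotype, the unlesioned erythroid sum was 34295 to 100175 CPM in the control and 18361 to 42916 CPM in the libraries labelled mutant.

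Per kilobase of exon, the ferritin chains were far above the rest. Fth1 averaged 8661 ± 1037 CPM per kb (SD, n = 3) in control unlesioned tissue, rank 10 among the 31109 genes tested, and rank 4 in control tissue at 4dpl. Ftl1 followed with 1740 ± 567 CPM per kb and rank 21. Hmox1 (197 ± 171, with 380, 42.6 and 168 in the 3 libraries), Trf (124 ± 12.8), Ncoa4 (17.9 ± 9.55) and Tfrc (10.4 ± 3.16) came next, then Aco1 (6.32 ± 1.66), Ireb2 (2.62 ± 0.592), Steap3 (0.906 ± 0.434) and Cp (0.54 ± 0.142), each as CPM per kb (SD, n = 3) in the same libraries. Neighbours whose spreads overlap, such as Hmox1 and Trf or Ncoa4 and Tfrc, were not separated. By these means Hmox1 ranked 190 and Trf 321 in control unlesioned tissue, and 902 and 468 in the unlesioned libraries labelled mutant. Aco1 lay above 82.0%, Ireb2 above 70.4% and Cp above 44.6% of the genes tested in control unlesioned tissue.

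**Figure D1:**
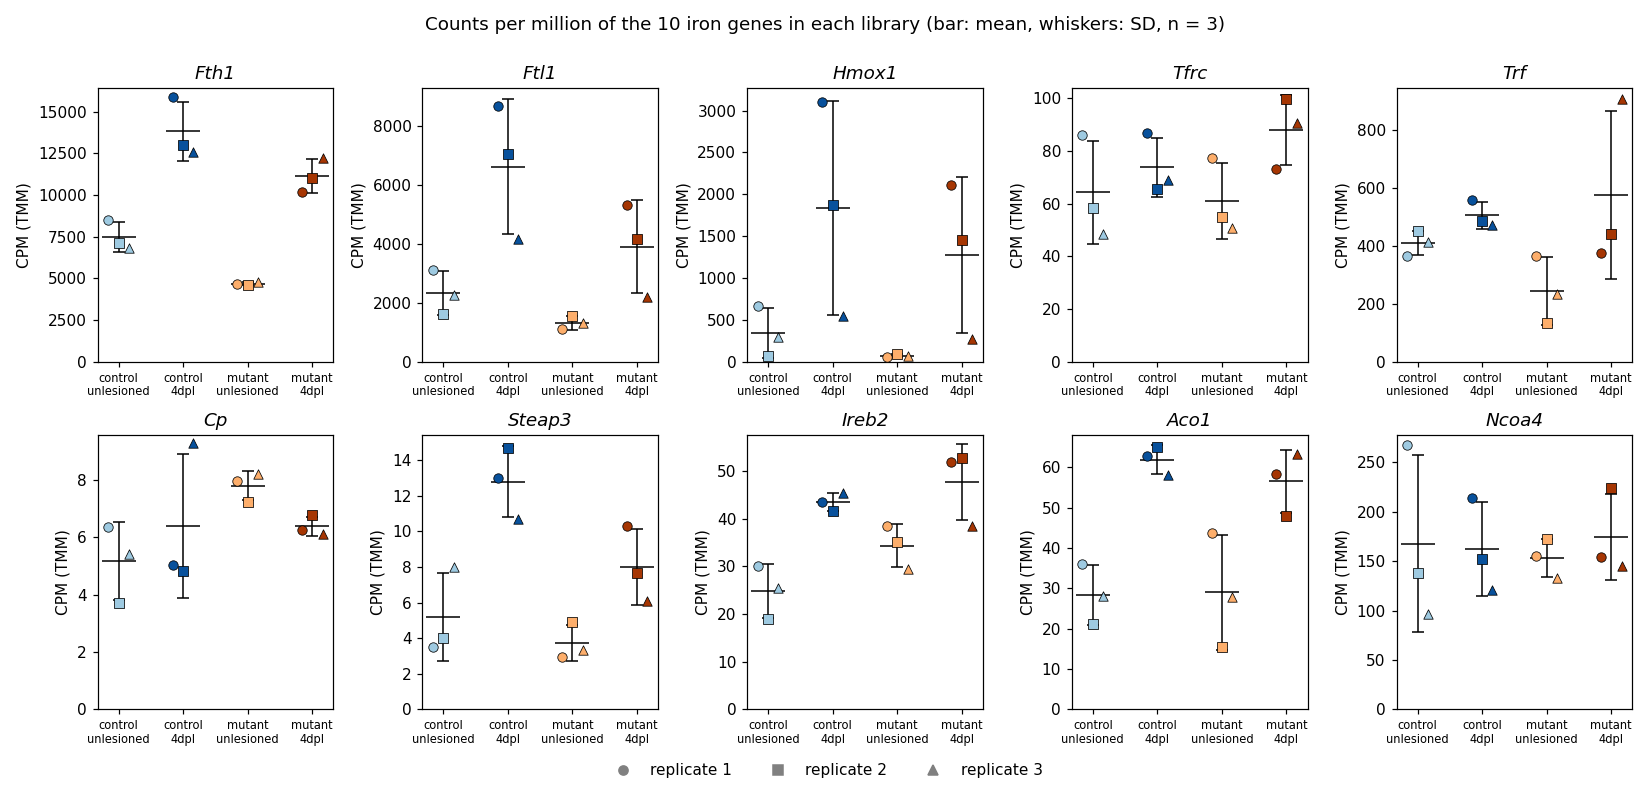
CPM (vertical axis, starting at 0) of each of the 10 iron genes in the 12 libraries by group. Points are single libraries with a symbol for the replicate number, bars are group means and whiskers the SD (n = 3). Fth1, Ftl1, Trf, Steap3, Ireb2 and Aco1 have every library at 4dpl above every unlesioned library of the same genotype, and Hmox1 runs from 56.8 to 3103 CPM.

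After LPC, 6 of the 10 iron genes rose over both genotypes: the ferritin chains Fth1 and Ftl1, Hmox1, the endosomal reductase Steap3, and the iron regulatory proteins Ireb2 and Aco1. None fell. Over all 31109 genes tested, 14.2% were called higher and 18.6% lower in that comparison, a call meaning a p under 0.01 and an adjusted p under 0.05 in the quasi-likelihood test of edgeR (Benjamini-Hochberg over all genes tested). The median log2 fold change was 0.91 over the 10 genes and -0.28 over all genes. RLE size factors in place of TMM moved the all-gene median to -0.38 over both genotypes and from -0.18 to -0.32 in the libraries labelled mutant, and the same 6 genes were called with them. With at least 10 counts required in every library, the all-gene median over both genotypes was 0.00. Then 4 of the 6 were called, without Fth1 and Ireb2, beside 10.5% of all genes called higher. TMM factors were 0.88 to 1.30 in the unlesioned libraries and 0.81 to 0.93 at 4dpl. The part of scaling in the rises was not tested. The text below follows each gene through its 12 libraries.

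**Figure D2:**
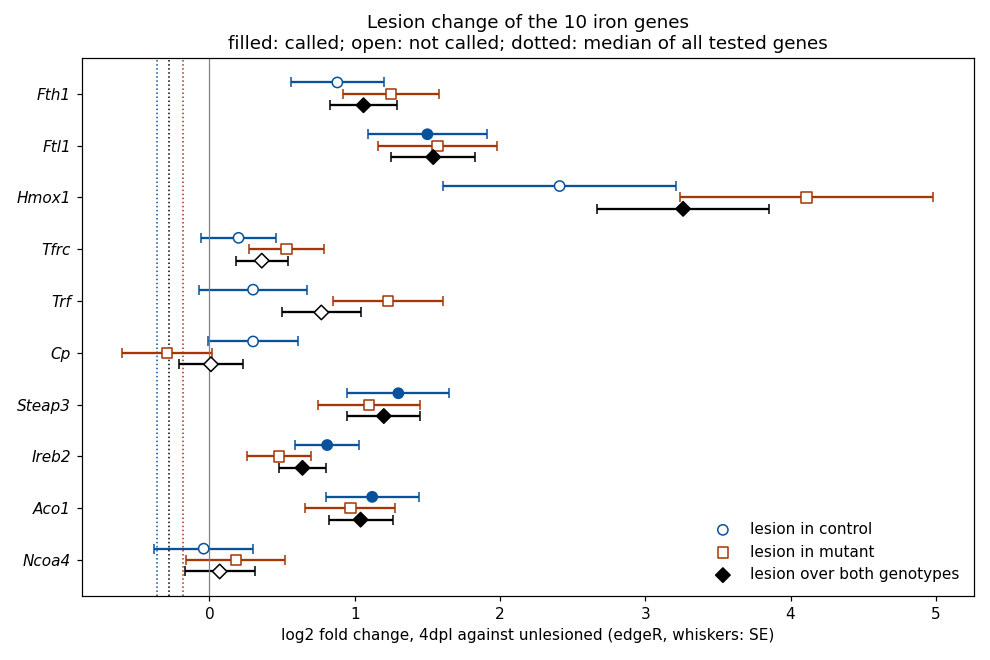
Log2 fold change between 4dpl and unlesioned tissue (horizontal axis, whiskers are standard errors) of the 10 iron genes in the control, in the libraries labelled mutant and over both genotypes. Filled symbols passed both thresholds, and dotted lines mark the median of all genes tested in each comparison (-0.36, -0.18 and -0.28). Hmox1 lies farthest to the right, and Cp (0.01) and Ncoa4 (0.07) lie next to 0 over both genotypes.

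Fth1, the iron-oxidizing chain of ferritin, was at 8525, 7131 and 6846 CPM in the control unlesioned libraries and at 15872, 12976 and 12588 CPM in the control at 4dpl. Libraries labelled mutant had Fth1 at 4694, 4586 and 4795 CPM unlesioned and at 10181, 11006 and 12228 CPM at 4dpl. Every library at 4dpl exceeded every unlesioned library, also across genotypes. The log2 fold change was 1.06 over both genotypes (standard error 0.23, adjusted p = 0.00554, edgeR), a 2.09-fold rise. Neither genotype alone passed the threshold, with 0.88 in the control (adjusted p = 0.0819) and 1.25 in the libraries labelled mutant (adjusted p = 0.0551). Under a filter of at least 10 counts in every library the value over both genotypes was 0.77 and was not called (adjusted p = 0.051).

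Ftl1, the light chain, was at 3122, 1607 and 2265 CPM in control unlesioned libraries and 8652, 7043 and 4146 CPM in the control at 4dpl. The libraries labelled mutant had 1099, 1546 and 1307 CPM unlesioned and 5331, 4175 and 2214 CPM at 4dpl. The groups did not overlap within either genotype, and replicate 3 was the lowest at 4dpl in both. The rise was 1.50 on the log2 scale in the control (standard error 0.41, adjusted p = 0.0417, edgeR), 1.57 in the libraries labelled mutant (standard error 0.41, adjusted p = 0.0556, not called) and 1.54 over both (standard error 0.29, adjusted p = 0.00393). The pseudogenes Ftl1-ps1, Ftl1-ps2 and Ftl2-ps are near-identical copies that could share reads with Ftl1, and they held 2.54% to 2.89% of the summed count in every library. For Fth1 the 2 annotated pseudogenes held at most 0.0247%.

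Hmox1, the heme-degrading enzyme, had the largest change of the 10 genes and also the largest spread. Control unlesioned libraries had 666, 74.6 and 295 CPM and control libraries at 4dpl 3103, 1870 and 545 CPM. The libraries labelled mutant had 56.8, 96.0 and 68.7 CPM unlesioned and 2107, 1451 and 268 CPM at 4dpl. The control groups overlapped because unlesioned replicate 1 lay above replicate 3 at 4dpl, and the groups labelled mutant did not overlap. Over both genotypes the log2 fold change was 3.26 (standard error 0.59, adjusted p = 0.00336, edgeR), a 9.59-fold rise. It was 2.41 in the control (standard error 0.80, adjusted p = 0.0637) and 4.11 in the libraries labelled mutant (standard error 0.87, adjusted p = 0.0522), neither of them called. Without control unlesioned replicate 1 the control value was 3.34 and was called (adjusted p = 0.0211), and the value over both genotypes was 3.74. With mutant 4dpl replicate 3 left out as well, a choice made after the data were seen, the value over both genotypes was 3.98. With control 4dpl replicate 1 alone left out, the control value was 1.83 (adjusted p = 0.187, edgeR, not called). The value over both genotypes was then 2.98 and was called. Both were the lowest values with 1 library left out.

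The rises of Fth1, Ftl1 and Hmox1 went along with those of the microglial and macrophage markers given above. In a bulk preparation, more cells of one type and more RNA per cell cannot be told apart. Within each library, the ratio of Ftl1 to the summed myeloid markers differed by 0.42 on the log2 scale between 4dpl and unlesioned tissue (exact permutation test within genotype, two-sided, p = 0.24, adjusted p = 0.314 over the 8 ratios tested). The ratio of Hmox1 to those markers was 2.07 higher on the log2 scale, a 4.21-fold difference, with p = 0.035 in the same exact test and an adjusted p of 0.09 over the 8 ratios, and it was 2.38 higher without control unlesioned replicate 1 (adjusted p = 0.0667). That ratio was 0.0912, 0.0158 and 0.0422 in the control unlesioned libraries and 0.255, 0.119 and 0.0309 in the control at 4dpl, where the groups overlapped. It was 0.00551, 0.0193 and 0.00968 unlesioned and 0.135, 0.122 and 0.0227 at 4dpl in the libraries labelled mutant, where they did not.

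Ftl1 and Hmox1 ordered the replicates alike. In each of the 4 groups the library with the most Hmox1 also had the most Ftl1, and the one with the least Hmox1 the least Ftl1. Of the 31108 other genes tested, 40 (0.129%) shared the order of Hmox1 in all 4 groups, and 39.6% shared it in none. Among the other iron genes here, Steap3 shared it in 2 groups, Fth1, Trf, Cp, Ireb2, Aco1 and Ncoa4 in 1, and Tfrc in 0. The myeloid and erythroid marker sums shared it in 2 groups each and the total count in 0. With CPM scaled by the total count alone, Ftl1 shared the order in 3 of the 4 groups. This likeness was looked for after the values had been seen, and 3 libraries give a group only few possible orders.

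**Figure D3:**
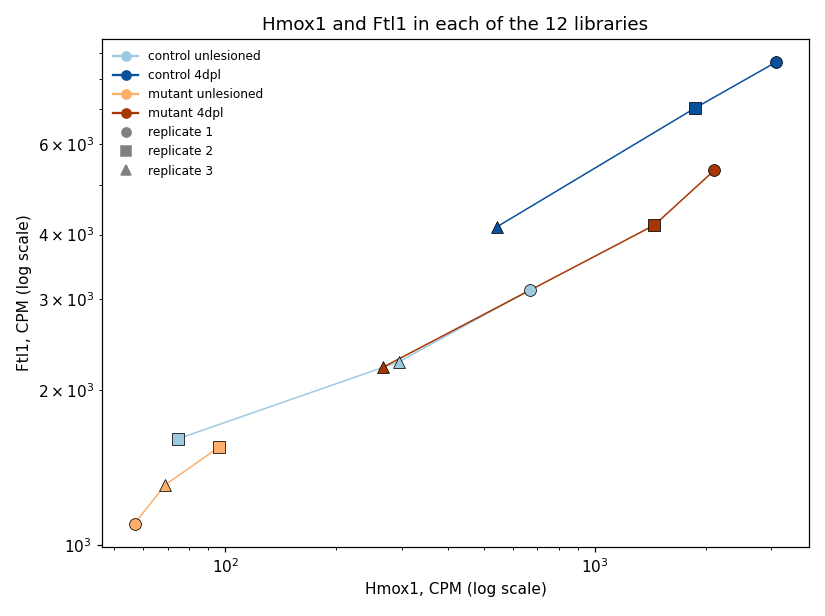
Ftl1 against Hmox1, both as CPM on log axes, in the 12 libraries, with a line joining the 3 libraries of each group and a symbol for the replicate number. In each group the line rises from left to right. Control unlesioned replicate 1, at 666 CPM of Hmox1, lies to the right of control 4dpl replicate 3, at 545, and below it in Ftl1 (3122 against 4146 CPM).

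Among the genes of iron uptake, the endosomal reductase changed and the receptor did not pass the test. Steap3 was low throughout, at 3.51, 3.99 and 8.03 CPM in control unlesioned libraries and 13.0, 14.7 and 10.7 CPM at 4dpl. Under the mutant label it was at 2.95, 4.89 and 3.35 CPM unlesioned and 10.3, 7.65 and 6.08 CPM at 4dpl. No library at 4dpl fell within the unlesioned range of its genotype. The log2 fold change of Steap3 was 1.30 in the control (standard error 0.35, adjusted p = 0.0401, edgeR) and 1.20 over both genotypes (standard error 0.25, adjusted p = 0.00494), and its value in the libraries labelled mutant was 1.10 (adjusted p = 0.0715, not called).

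Tfrc, the transferrin receptor, was at 86.1, 58.3 and 48.4 CPM in control unlesioned libraries and at 86.6, 65.6 and 69.1 CPM in the control at 4dpl. It was at 77.4, 54.8 and 50.6 CPM unlesioned and at 73.3, 99.5 and 90.6 CPM at 4dpl in the libraries labelled mutant. The groups overlapped in both genotypes. Over both genotypes its log2 difference was 0.36 (standard error 0.18, adjusted p = 0.118, edgeR), and without control unlesioned replicate 1 it was 0.52 and passed the test (adjusted p = 0.019).

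Trf, the iron carrier that oligodendrocytes secrete, was at 367, 451 and 414 CPM in control unlesioned libraries and at 559, 487 and 473 CPM at 4dpl. Under the mutant label it was at 366, 133 and 233 CPM unlesioned and at 375, 441 and 907 CPM at 4dpl. The groups did not overlap within either genotype, though the highest library labelled mutant unlesioned lay just below the lowest at 4dpl. The log2 difference over both genotypes was 0.77 (standard error 0.27, adjusted p = 0.034, edgeR), which passed the adjusted threshold but not that on the unadjusted p, so it was not called. It was 0.30 in the control (adjusted p = 0.573) and 1.23 in the libraries labelled mutant (adjusted p = 0.0673, edgeR). Replicate 3 labelled mutant at 4dpl, with 907 CPM of Trf, also had the highest sum of oligodendrocyte markers, 70150 CPM against 14760 to 34830 in the other 11 libraries. Without it the differences were 0.76 in the libraries labelled mutant and 0.54 over both genotypes. Other choices raised the value over both genotypes, to 0.91 without mutant 4dpl replicate 1 and 0.87 without mutant 4dpl replicate 2. Trf was called in both of these fits. In all it was called over both genotypes in 7 of 22 alternatives and not in the others.

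Set against the oligodendrocyte markers of the same library, Trf had a log2 ratio 0.02 higher after lesion (two-sided exact permutation test within genotype, p = 0.93, adjusted p = 0.93). The difference was -0.33 in the control and 0.36 in the libraries labelled mutant, where the groups did not overlap. The mean log2 ratio in the control was -5.51 ± 0.31 unlesioned and -5.84 ± 0.31 at 4dpl (SD, n = 3). Under the mutant label it was -6.52 ± 0.25 unlesioned and -6.15 ± 0.11 at 4dpl (SD, n = 3). The ratio of Trf to Tfrc was 0.39 higher on the log2 scale at 4dpl, with p = 0.275 in the same exact permutation test and an adjusted p of 0.314.

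Cp, the ferroxidase of iron release, was near the bottom of the scale. Control libraries had 6.37, 3.70 and 5.43 CPM unlesioned and 5.05, 4.82 and 9.28 CPM at 4dpl. Those labelled mutant had 7.96, 7.22 and 8.20 CPM unlesioned and 6.25, 6.76 and 6.13 CPM at 4dpl. The control groups overlapped, and in the libraries labelled mutant all 3 at 4dpl were below all 3 unlesioned. The log2 difference was 0.30 in the control (adjusted p = 0.488, edgeR), -0.29 in the libraries labelled mutant (adjusted p = 0.512) and 0.01 over both (adjusted p = 0.98). Astrocytes are a known source of Cp, and the sum of 8 astrocyte markers was 372 to 451 CPM in the unlesioned libraries and 521 to 1134 CPM at 4dpl. The ratio of Cp to these markers was 0.78 lower on the log2 scale after lesion (two-sided exact permutation test, p = 0.015, adjusted p = 0.06). Hps3, on the opposite strand, overlaps Cp and had 1135% of its summed count. The strand setting of the counting was not given in the sources used here, so reads of the overlap cannot be assigned with certainty.

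The transcripts of both iron regulatory proteins rose. Aco1 was at 36.0, 21.1 and 28.1 CPM in control unlesioned libraries and at 62.7, 64.9 and 58.0 CPM at 4dpl. It was at 43.7, 15.4 and 27.8 CPM unlesioned and at 58.4, 47.9 and 63.2 CPM at 4dpl in the libraries labelled mutant. The groups were apart in both genotypes, with the wider spread among the unlesioned libraries. The log2 fold change of Aco1 was 1.12 in the control (standard error 0.32, adjusted p = 0.0434, edgeR), 0.97 in the libraries labelled mutant (adjusted p = 0.0739, not called) and 1.04 over both (standard error 0.22, adjusted p = 0.00537).

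Ireb2 was at 30.1, 18.9 and 25.4 CPM in control unlesioned libraries and at 43.6, 41.7 and 45.4 CPM at 4dpl. The libraries labelled mutant had 38.5, 35.1 and 29.5 CPM unlesioned and 51.9, 52.8 and 38.6 CPM at 4dpl. Again no group at 4dpl reached into the unlesioned range of its genotype, although the lowest and highest values of the groups labelled mutant differed by little. The log2 fold change of Ireb2 was 0.81 in the control (standard error 0.22, adjusted p = 0.0404, edgeR), 0.48 in the libraries labelled mutant (adjusted p = 0.145, not called) and 0.64 over both (standard error 0.16, adjusted p = 0.00824). Under a filter of at least 10 counts in every library the value over both genotypes was 0.36 and was not called (adjusted p = 0.0686). The myeloid markers rose in the same libraries, and their part in the values of Aco1, Ireb2 and Steap3 was not tested. The ratio of Aco1 to Ireb2 within a library was 0.47 higher on the log2 scale after lesion (two-sided exact permutation test, p = 0.045, adjusted p = 0.09). In the control this ratio was 1.20, 1.12 and 1.10 unlesioned and 1.44, 1.56 and 1.28 at 4dpl, without overlap, and in the libraries labelled mutant the groups overlapped.

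Ncoa4, which delivers ferritin to lysosomes, was at 268, 138 and 96.8 CPM in control unlesioned libraries and at 214, 152 and 121 CPM at 4dpl. It was at 155, 172 and 133 CPM unlesioned and at 154, 224 and 145 CPM at 4dpl in the libraries labelled mutant. The groups overlapped throughout, and the log2 difference was 0.07 over both genotypes (standard error 0.24, adjusted p = 0.83, edgeR). Control unlesioned replicate 1 was the highest of the 12 libraries, and without it the difference of Ncoa4 was 0.50 in the control, against -0.04 with it, and 0.35 over both genotypes (adjusted p = 0.135, edgeR).

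The IRE-bearing transcripts did not move alike. Tfrc fell relative to Fth1 within the library, from 0.0101, 0.00818 and 0.00706 to 0.00545, 0.00506 and 0.00549 in the control. In the libraries labelled mutant the ratio was 0.0165, 0.0120 and 0.0106 unlesioned and 0.0072, 0.00904 and 0.00741 at 4dpl. No lesioned library overlapped the unlesioned ones of its genotype. The difference was -0.68 on the log2 scale (exact permutation test within genotype, two-sided, p = 0.005, the smallest that the 400 arrangements allow, adjusted p = 0.04 over the 8 ratios). It was -0.65 in the control and -0.70 in the libraries labelled mutant. Without mutant 4dpl replicate 1 or replicate 3 the difference was -0.64 and -0.66 with an adjusted p of 0.06 each in the same test. The adjusted p stayed at 0.04 without control unlesioned replicate 1, control 4dpl replicate 1 or mutant 4dpl replicate 2. Fewer arrangements exist in every such test. Fth1 and Ftl1 were not told apart in their change, the ratio of Fth1 to Ftl1 being 0.43 lower on the log2 scale after lesion (two-sided exact permutation test, p = 0.16, adjusted p = 0.256).

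**Figure D4:**
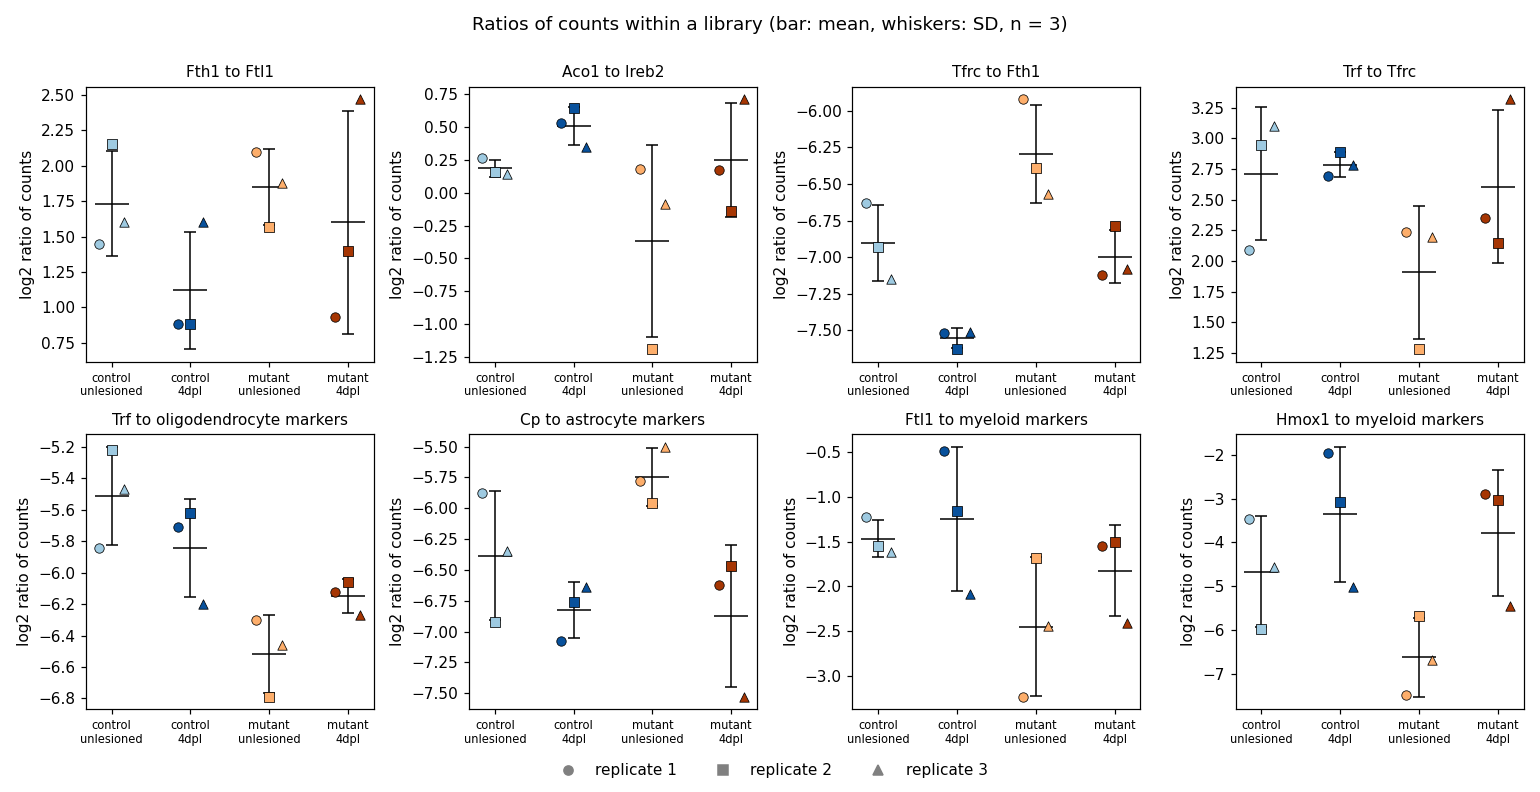
Log2 ratios of counts within a library (vertical axis) for the 8 ratios tested, by group. Points are single libraries with a symbol for the replicate number, bars are means and whiskers the SD (n = 3). Tfrc to Fth1 is the ratio whose groups are apart in both genotypes, with means of -6.90 and -7.55 in the control and of -6.29 and -6.99 in the libraries labelled mutant.

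By genotype, 4 of the 10 iron genes were called higher at 4dpl in the control, Ftl1, Steap3, Ireb2 and Aco1, where 5.12% of all genes tested were called higher and 5.01% lower. Under the mutant label 0 were called, where 0.0225% of all genes were called higher and 0.113% lower, and 7 of the 10 had an unadjusted p under 0.05, as did 4939 higher and 5564 lower genes of the 31109. DESeq2 called 6 in the control, where it called 8.42% of all genes higher, and 4 in the libraries labelled mutant (Fth1, Ftl1, Hmox1 and Trf), where it called 4.28% higher. The count in the control rested on single libraries, and the share of all genes called higher moved with it, from 0.003% to 12.2%. It was 0 without control unlesioned replicate 2 or 3, control 4dpl replicate 1 or 2, or mutant unlesioned replicate 3, it was 2 without mutant 4dpl replicate 1 and 1 without mutant 4dpl replicate 2, and it was 6 without control unlesioned replicate 1. In the libraries labelled mutant the count was 6 without control unlesioned replicate 1, 4 without mutant unlesioned replicate 1 and 1 without control 4dpl replicate 3, beside 7.72%, 6.36% and 0.0324% of all genes called higher. The 6 genes called over both genotypes were called again with any 1 of the 12 libraries left out, with 1 further gene in 4 of those fits, beside 10.2% to 17.7% of all genes called higher.

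Counted by libraries instead, 6 of the 10 genes had every control library at 4dpl above every control unlesioned one (16.5% of all genes did), and 7 had this in the libraries labelled mutant (18.8%). The same 6 genes, Fth1, Ftl1, Trf, Steap3, Ireb2 and Aco1, did so in both genotypes, as did 11.0% of all genes. Hmox1 was the seventh in the libraries labelled mutant.

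The change after lesion did not differ detectably between genotypes for any of the 10 genes. The interaction, the change in the libraries labelled mutant minus that in the control, was called for 0 of the 10 and for 0 of the 31109 genes (0% called, edgeR), with 0 of the 10 under an unadjusted p of 0.05 and 828 genes above and 356 below 0 at that level among all genes, and DESeq2 called 0 as well. For Hmox1 it was 1.70 on the log2 scale (standard error 1.09, adjusted p = 1) and for Trf 0.93 (standard error 0.53, adjusted p = 1). Without control unlesioned replicate 1 the interaction of Hmox1 was 0.79, below that of Trf in the same fit, and without mutant 4dpl replicate 3 it was 2.19 for Hmox1 and 0.44 for Trf. For Cp it was -0.59 (standard error 0.44, adjusted p = 1) and for Fth1 0.37 (standard error 0.45, adjusted p = 1), and without control 4dpl replicate 3 it was -0.36 and 0.18.

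In unlesioned tissue, the iron genes did not pass the test between genotypes either, with 0 of 10 and 0% of all genes called by edgeR. Hmox1 had the lowest value in the libraries labelled mutant relative to the control, -2.22 on the log2 scale (standard error 0.80, adjusted p = 0.787, edgeR), and it was the 1 gene of the 10 with an unadjusted p under 0.05, which 534 higher and 1090 lower genes had in all. Without control unlesioned replicate 1 the difference was -1.32. Fth1 (-0.68, adjusted p = 0.954), Ftl1 (-0.82, adjusted p = 0.98) and Trf (-0.75, adjusted p = 0.981) had all 3 libraries labelled mutant below all 3 control libraries. The gap was small for Trf, between 366 and 367 CPM, and for Ftl1, between 1546 and 1607 CPM. The share of all genes apart in this way was not counted. Steap3 had a value of -0.47, Ireb2 of 0.47 and Cp of 0.59, with adjusted p-values of 1, 0.95 and 0.992. Single libraries moved several of these values: Steap3 was at -0.01 without control unlesioned replicate 3 and at -0.71 without mutant unlesioned replicate 2, Ireb2 at 0.30 without control unlesioned replicate 2, and Trf at -1.17 and -0.45 without mutant unlesioned replicates 1 and 2. The remaining 3 genes differed by at most 0.13 in size. DESeq2 called 0 of the 10 and 17 higher and 28 lower genes in all. The mean erythroid sum of the unlesioned libraries was 74705 CPM in the control and 29021 CPM under the mutant label, with overlapping ranges. Its part in the differences between genotypes was not tested.

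At 4dpl, 0 of the 10 and 0% of all genes were called between genotypes by edgeR, 0 of the 10 had an unadjusted p under 0.05 against 1602 higher and 551 lower genes, and DESeq2 called 0 of the 10 and 202 higher and 25 lower genes in all. Ftl1 (-0.76, adjusted p = 0.795), Steap3 (-0.67, adjusted p = 0.778), Hmox1 (-0.53, adjusted p = 0.971) and Fth1 (-0.31, adjusted p = 0.941) had values below 0 in the libraries labelled mutant. All 3 libraries labelled mutant were below all 3 control libraries for Fth1 and Steap3, and the share of all genes apart in this way was not counted either. Trf, at 0.18, and Ireb2, at 0.13, had adjusted p-values of 0.984 and 0.975. Without mutant 4dpl replicate 3 the value of Trf was -0.32, that of Ftl1 -0.48 and that of Hmox1 -0.05, and without control 4dpl replicate 1 that of Hmox1 was 0.08.

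Around the 10 genes, 3 further lists of iron and heme genes were counted over both genotypes, beside 14.2% of all genes called higher and 18.6% called lower. Of 18 genes of iron entry, endosome and release, 17 were tested (Hamp was not), 5 were called higher and 2 lower, with a median log2 fold change of -0.03. Of 20 genes of heme handling, 4 were called higher and 0 lower, with a median of 0.09. Of 18 genes of iron sensing, chaperoning and mitochondrial iron, 3 were called higher and 2 lower, with a median of 0.21. Those called lower were Hephl1 and Timd2 among the genes of iron entry, endosome and release, and Bmp6 and Tmprss6 among those of iron sensing. The call of Timd2 is not interpreted, for the reason given below. In the control 4, 2 and 2 genes of the lists were called higher and 0, 0 and 1 lower, and in the libraries labelled mutant 0 of each list were called.

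The importers that rose take up iron not bound to transferrin or move it out of endosomes. Slc39a14 (ZIP14), a metal importer of the cell surface, went from 16.7 ± 9.76 to 51.4 ± 5.36 CPM in the control and from 11.1 ± 2.50 to 34.6 ± 8.97 CPM in the libraries labelled mutant (SD, n = 3). Its log2 fold change was 1.63 over both (adjusted p = 0.00274, edgeR). Slc39a8 (ZIP8), its close relative, rose by 1.25 on the log2 scale (adjusted p = 0.00321, edgeR). Slc11a2 (DMT1), which carries ferrous iron out of the endosome where Steap3 has reduced it, was at 32.9, 17.9 and 25.1 CPM in control unlesioned libraries and at 56.2, 54.0 and 48.7 CPM at 4dpl. The libraries labelled mutant had 32.3, 27.0 and 24.0 CPM unlesioned and 49.5, 35.4 and 52.7 CPM at 4dpl. Slc11a2 rose by 0.89 on the log2 scale over both genotypes (standard error 0.17, adjusted p = 0.00413, edgeR), and its groups did not overlap in either. Slc11a1, the phagosomal metal transporter of macrophages (log2 fold change 1.25, adjusted p = 0.00447, edgeR), and the lysosomal channel Mcoln1 (0.86, adjusted p = 0.00779) were also called.

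The exporter ferroportin, Slc40a1, was not called. It was at 215, 67.9 and 57.5 CPM in control unlesioned libraries and at 327, 134 and 111 CPM at 4dpl, and the libraries labelled mutant had 125, 259 and 180 CPM and then 229, 316 and 153 CPM. The groups overlapped in both genotypes, and the log2 difference was 0.53 over both (standard error 0.36, adjusted p = 0.245, edgeR). The IRE search also matched Slc40a1 and Slc11a2, and of the other genes in the 3 lists the 3′ UTR of Bach1 (4 of 5 pairs) and coding sequence of 7 genes, Slc11a1, Lcn2, Heph, Abcb6, Lrp1, Pcbp2 and Herc2. Both transporters are shown for comparison with the hairpins of Fth1, Ftl1 and Tfrc, with all 5 pairs formed in Slc40a1 and 4 of 5 in Slc11a2.
Slc40a1, 5′ UTR in exon 1, chr1:45925464-45925493, minus strand: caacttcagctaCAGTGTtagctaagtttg
Slc11a2, 3′ UTR in exon 16, chr15:100395152-100395181, minus strand: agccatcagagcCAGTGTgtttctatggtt

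At the low end, Timd2, known as a receptor for H-ferritin in the mouse, was among the genes called lower over both genotypes. It had 9 to 78 reads in an unlesioned library and 0 to 8 at 4dpl, so that it passed the filter on low counts through the unlesioned libraries. The filter thus selected it on the side that was high, and no conclusion is drawn from the call. Neither its fold change nor its p-value is interpreted. It was scarce, at 0.207, 0.850 and 1.52 CPM in control unlesioned libraries and at 0.140, 0.0867 and 0 CPM at 4dpl. Under the mutant label it was at 0.166, 0.619 and 0.498 CPM unlesioned and at 0, 0.0537 and 0.108 CPM at 4dpl. Timd2 was named after its values had been seen, as were Nfe2l2, Slc11a1, Mcoln1, Flvcr1, Hephl1, Bmp6 and Tmprss6.

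In the heme pathway, Blvra was called higher and Blvrb was not, and the difference between them was not tested. Blvra, which turns the biliverdin made by heme oxygenase into bilirubin, rose by 0.97 on the log2 scale over both genotypes (standard error 0.15, adjusted p = 0.0022, edgeR), from 38.1, 27.3 and 38.8 to 64.5, 66.8 and 52.4 CPM in the control. Blvra went from 22.7, 18.5 and 21.9 to 48.9, 46.3 and 41.3 CPM in the libraries labelled mutant, again without overlap. The other biliverdin reductase, Blvrb, was at 99.0, 94.1 and 54.1 CPM unlesioned and 101, 90.9 and 49.4 CPM at 4dpl in the control, and its log2 difference was -0.04 in the control (adjusted p = 0.951, edgeR), 0.75 in the libraries labelled mutant (adjusted p = 0.167) and 0.36 over both (standard error 0.26, adjusted p = 0.275). Blvrb was at 36.1, 35.1 and 21.7 CPM in the libraries labelled mutant unlesioned, all below the control libraries, and the genotype difference of -1.41 did not pass the test (adjusted p = 0.693, edgeR).

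Hmox2, the heme oxygenase made in most cells without induction, rose by 0.67 on the log2 scale over both genotypes (standard error 0.16, adjusted p = 0.00759, edgeR), against 3.26 for Hmox1. It stood at 77.6 ± 12.2 and 117 ± 9.65 CPM in the control and at 67.1 ± 12.3 and 113 ± 20.6 CPM in the libraries labelled mutant, unlesioned and at 4dpl (SD, n = 3). Lrp1, an endocytic receptor that takes up heme bound to hemopexin among many other cargoes, rose by 1.54 on the log2 scale (adjusted p = 0.00326, edgeR), and the heme exporter Flvcr1 rose by 0.87 (adjusted p = 0.0218). Bach1, the repressor that heme releases from the Hmox1 promoter, had a log2 difference of 0.21 (adjusted p = 0.274, edgeR), whereas Nfe2l2 (NRF2), which activates Hmox1 and ferritin genes, rose by 0.65 (standard error 0.17, adjusted p = 0.0117, edgeR). Hfe, a partner of the transferrin receptor that is also an MHC class I-like molecule, rose by 1.18 on the log2 scale (adjusted p = 0.00338, edgeR), and Nfs1, the cysteine desulfurase of iron-sulfur cluster assembly, by 0.66 (adjusted p = 0.00517).

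**Figure D5:**
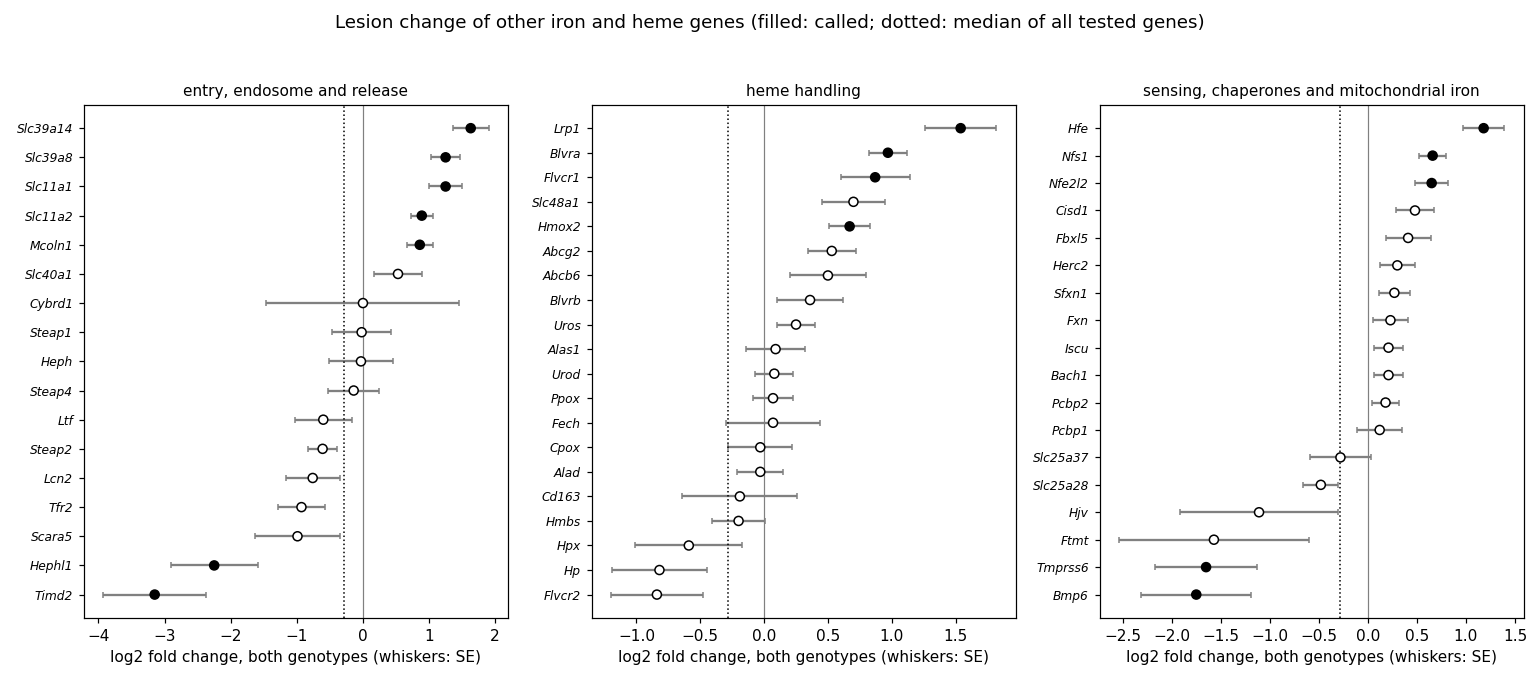
Log2 fold change between 4dpl and unlesioned tissue over both genotypes (horizontal axis, whiskers are standard errors) of the 55 genes tested in 3 lists of other iron and heme genes. Filled points passed both thresholds and the dotted line marks the all-gene median of -0.28. Slc39a14 and Lrp1 lead their lists upward. The point of Timd2 rests on 0 to 8 reads in a library at 4dpl and is not interpreted.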

How the data were processed

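The paper's methods name BWA for alignment to mm10 (GRCm38) and featureCounts for counting uniquely aligned reads on Ensembl exons. Raw counts per gene were deposited, 1 library per file, without normalization. The submitters' processing notes name STAR instead, so which aligner made these counts is not settled. The strand setting is not given in the sources used here. All 37 mitochondrial genes had a count of 0 in every library.

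Tests used edgeR 4.0.16 in R 4.3.3. After filterByExpr over the 4 groups 31109 genes remained. Library sizes were scaled by TMM and 1 quasi-likelihood model with a mean per group was fitted to all 12 libraries. Genes were called at p under 0.01 and a Benjamini-Hochberg adjusted p under 0.05 over all genes tested, the thresholds of the study's methods. Standard errors were obtained from the F statistic. The log2 ratios were tested by an exact permutation of 4dpl and unlesioned labels within genotype (400 arrangements, two-sided), adjusted over 8 ratios. Total counts of 34805086 to 67251544 leave little counting error for these genes, and the 3 libraries per group limit the precision. Where the labels do not state separate animals, p-values measure the spread between these libraries.

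The 10 genes are those of a list chosen by name and are all reported. Of the other iron genes, Slc40a1, Slc11a2, Hmox2, Blvrb and Bach1 and the 3 smallest p-values of each list are named, and a few more were named after their values were seen. The genes, lists and tests were chosen with earlier results of these data known. IREs were searched in GENCODE transcripts of GRCm38 and promoters taken from RefSeq windows of GRCm38.p6. In simulated counts with 200 changed genes, run on 29309 genes, the fit recovered 64.0% for the lesion in the control, 65.5% in the libraries labelled mutant and 82.0% over both genotypes, with 5, 6 and 14 false calls. These shares were not broken down by size of change, so they do not give the sensitivity for the fold changes of the 10 genes. Alternatives were DESeq2 1.42.0, limma 3.58.1 with voom, other scalings, filters and thresholds, replicate blocks, and fits leaving out each library.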

Additional observations from a re-analysis of the deposited data

How the results depend on the processing

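The number of the 10 iron genes called after lesion over both genotypes was 4 to 8 in all alternatives, beside 10.2% to 20.5% of all genes called higher (6 to 7 with 1 library left out). In the control it was 4 (5.12% of all genes called higher), but 0 with at least 10 counts required in every library (3.87%), 1 in a fit to the groups compared (2.39%) and 0 to 6 with 1 library left out (0.003% to 12.2%). In the libraries labelled mutant it was 0 (0.0225% of all genes called higher), but 4 with DESeq2 (4.28%), 2 without a filter (0.621%), 3 with voom (1.24%), 7 with voom and sample weights (11.2%), 5 with edgeR's newer quasi-likelihood option (4.42%), 1 in a fit to the groups compared (0.151%), 6 at an adjusted p under 0.10 alone (2971 genes), 0 to 6 with 1 library left out (0% to 7.72%), and 2 without control unlesioned replicate 1 and mutant 4dpl replicate 3 (1.09%, 10 libraries, added after the data were seen). Between genotypes and for the interaction it was 0 in every alternative. The cause of these shifts was not tested. With a replicate block, by label number or by the number in the paper, the counts were 4, 0 and 6 in the control, in the libraries labelled mutant and over both genotypes. Beside them 7.31%, 0% and 15.4% of all genes were called higher by label number, and 5.80%, 0% and 13.9% by the other. Same-numbered libraries were not clearly paired, their deviations correlating from -0.012 to 0.29 by label number and from -0.212 to 0.101 by the other.

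Values near 0 changed sign. Ncoa4 in the control (-0.04) was 0.50 in the 10 libraries, 0.06 without a filter, 0.05 with voom, 0.26 with sample weights, 0.01 and 0.22 with the replicate blocks and -0.31 to 0.50 with 1 library left out. In the libraries labelled mutant (0.18) it was -0.13 with at least 10 counts, -0.05 in the groups compared, -0.06 with the block by the paper's number and -0.01 to 0.32 with 1 library left out, and over both (0.07) it was -0.02 with DESeq2 and with RLE, -0.20 with at least 10 counts and -0.06 to 0.35. Cp over both (0.01) was -0.09 with DESeq2 and with RLE, -0.27 with at least 10 counts, -0.02 with voom and -0.18 to 0.12 with 1 library left out. Tfrc in the control was -0.05 with at least 10 counts. Between genotypes at 4dpl, Trf was -0.11 with sample weights, -0.32 in the 10 libraries and -0.32 to 0.41 with 1 library left out, and Hmox1 was -1.10 to 0.08. The interaction of Hmox1 (1.70) was 0.34 with the block by the paper's number, 0.89 with sample weights and 0.79 to 2.31 with 1 library left out.

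Of the ratios, Trf to oligodendrocyte markers was -0.33 in the control alone and 0.36 in the libraries labelled mutant alone, and -0.07 to 0.11 with 1 library left out. Cp to astrocyte markers passed the test in 3 of 16 alternatives, among them the mean of log2 marker values (-0.67). Hmox1 to myeloid markers passed it in 1 of 16. With 1 library left out Cp to astrocyte markers was -0.92 to -0.62, Tfrc to Fth1 was -0.74 to -0.58 and Hmox1 to myeloid markers was 1.73 to 2.49.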
